A study of Macaca mulatta with 7 samples.

Results

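Of the 7 sperm libraries of this series, 2 stood far above the rest in the summed level of 6 leukocyte genes, and the 2 are described here against the other 5. For each library the sense levels in CPM, the counts of a gene scaled to a fixed total per library, of PTPRC, CD68, CD74, ITGAM, LYZ and TYROBP were summed, where sense means reads on the strand of the gene. Libraries with a sum of 200 CPM or more are called high, and all others low. The rule found Control 4 and Maltreated 3, so that 1 high library belongs to each group. Because the libraries were chosen by measured values, every difference between high and low is a description without a test. The values of the 6 genes are those that made the choice and support nothing. The name leukocyte RNA is a label of the rule, and the rule itself is less secure for Control 4. Without CD74 the sum of Control 4 fell under the threshold, and its PTPRC level lay beside that of a low library. Of 23 other pan-leukocyte genes, 21 were above every low library in Maltreated 3 and 10 in Control 4. Over all 17813 genes with a count it was 4398 and 5048. Summed, the 23 genes were highest in a low library, Control 3, through VAV1, above both high libraries.

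Total RNA had been sequenced from sperm cells of rhesus macaques (Macaca mulatta), 4 labelled Control and 3 labelled Maltreated, and the series title names the legacy of early life stress in the germline as its subject. All 7 samples passed through a PureSperm density gradient and TRIzol extraction, and no other treatment or genotype is given. The animals were 5.67 to 5.92 years old, a different age for each library, and the 7 libraries are taken as 7 animals. Each library held 5316383 to 30715268 sense counts, the fewest in Control 4, while Maltreated 3 had 10690315. Antisense reads made up 6.15 to 12.1% of the counts, with the highest share in Control 4 and 8.45% in Maltreated 3.

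Mature sperm shed almost all of their cytoplasm and carry a small amount of RNA, much of it left over from spermatids. Semen also holds leukocytes, mainly macrophages, granulocytes and some lymphocytes, and each of these cells carries far more RNA than a sperm. Density gradients are used to remove such round cells before sperm RNA is extracted. Macrophages are phagocytes with many lysosomes, and they show peptides on major histocompatibility complex (MHC) class II molecules. In bulk RNA, fewer cells of a type and less RNA per cell cannot be told apart.

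The summed level of the 6 markers was 582 CPM in Control 4 and 981 CPM in Maltreated 3. In the low libraries it was 5.08, 5.61 and 34 CPM in Control 1 to 3, and 5.50 and 37.7 CPM in Maltreated 1 and 2. The nearest library inside the threshold thus stood 15.5-fold above the nearest one outside it. No library lay between 37.7 and 582 CPM.

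The 6 genes were not equally high in the 2 libraries. CD74, the invariant chain that escorts MHC class II molecules, had 502 CPM in Control 4 and 265 CPM in Maltreated 3. In Control 1 to 3 it had 1.22, 1.81 and 9.16 CPM, and in Maltreated 1 and 2 it had 1.17 and 2.43 CPM. TYROBP, an adaptor of myeloid and NK cell receptors, had 29.3 CPM in Control 4 and 43.0 CPM in Maltreated 3. It was at 0 in Control 1, Maltreated 1 and Maltreated 2, and at 0.724 and 0.666 CPM in Control 2 and 3. These genes separated both high libraries from the low ones by over 4-fold.

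CD68, a lysosomal membrane protein of macrophages, had 390 CPM in Maltreated 3 and 18.4 CPM in Control 4, against 0 to 9.33 CPM in the low libraries. LYZ, the antibacterial enzyme lysozyme, had 80.7 CPM in Maltreated 3 and 7.52 CPM in Control 4, against 0.181 to 4.16 CPM. PTPRC, the CD45 phosphatase found on all nucleated blood cells, had 72.6 CPM in Maltreated 3. Its level in Control 4 was 3.95 CPM from 21 counts, with an exact 95% Poisson interval of 2.45 to 6.04, and Control 3 had 3.00 CPM. ITGAM, the integrin chain CD11b, had 130 CPM in Maltreated 3 and 20.7 CPM in Control 4, below the 30.2 CPM of Maltreated 2. In Maltreated 3 all 6 markers were thus above every low library, and in Control 4 it was 5 of 6.

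The sum was thus made of different genes in the 2 libraries. CD74 supplied 86.3% of the marker sum in Control 4 and 27.0% in Maltreated 3. With CD74 left out, the sum was 79.9 CPM in Control 4, under the threshold, and 716 CPM in Maltreated 3, against 3.80 to 35.2 CPM in the low libraries. Reads covered 92.1% of the CD74 exons in Control 4 and 97.9% in Maltreated 3, against 17.6 to 34.9% in the low libraries. For PTPRC they covered 48.7% in Maltreated 3 and 4.86% in Control 4, the latter within the 1.66 to 6.57% of the low libraries. The plot of the 6 markers by library shows this difference.

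**Figure D1:**
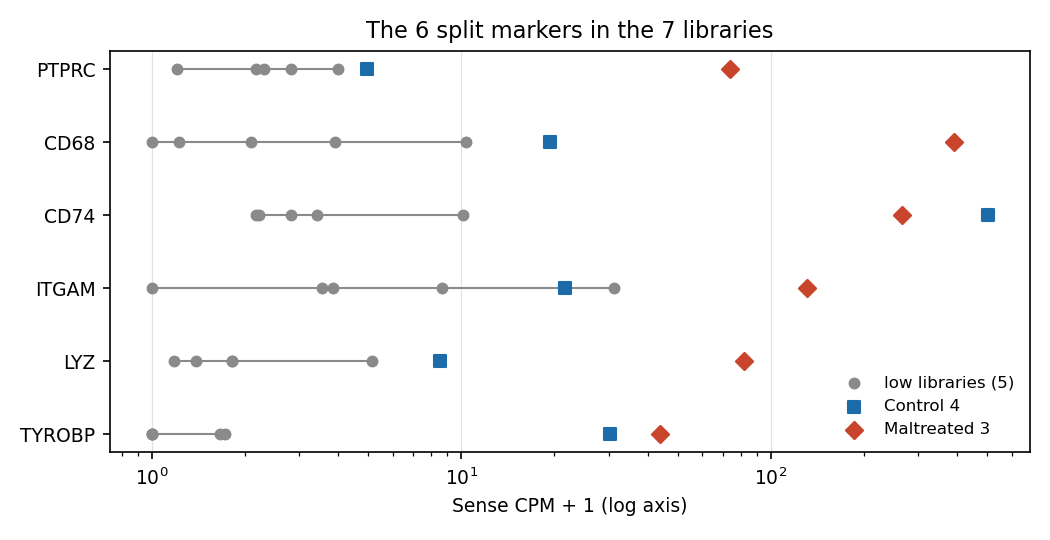
Sense CPM + 1 of the 6 markers that set the split, on a log axis, with 1 point per library. Grey points are the 5 low libraries and the line spans them; the blue square is Control 4 and the red diamond Maltreated 3. CD74 and TYROBP stand apart in both high libraries, while PTPRC and ITGAM in Control 4 (3.95 and 20.7 CPM) lie beside or among the low libraries.

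The other genes were then compared on log2(CPM + 1). A gene counted as higher when the lower of the 2 high libraries was above the highest low library, and that ratio, on CPM + 1, is called the gap. Of 10719 genes kept by a filter on low counts, 967 were higher in both high libraries than in every low library, which is 9.02% of the genes. By a gap of 4-fold or more, 49 genes were higher, which is 0.457%. Lower in both high libraries were 343 genes (3.20%), and 0 of them by 4-fold (0%). The filter asks for counts in about as many libraries as the smaller group holds, and so it drops genes seen in the 2 high libraries alone. Over the 17813 genes with any count, 1724 (9.68%) were higher and 142 (0.797%) were higher by 4-fold, while 382 (2.14%) were lower and 0 of them by 4-fold (0%). The gene list counts below are over genes with any count, and the shares to set beside them are 9.68% higher and 0.797% by 4-fold. No floor was set for these counts, so some members rest on few reads.

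These transcripts were a small part of each library. The 142 genes together took 0.586% of the sense counts in Control 4 and 0.700% in Maltreated 3, against 0.0164 to 0.0256% in the low libraries. Without the split markers CD74 and TYROBP it was 0.533 and 0.669%, against 0.0162 to 0.0246%. The genes were chosen for being higher in these 2 libraries, so the contrast with the low libraries is set by the choice. Of the 142 genes, 42 are in one of the gene lists used here or are split markers, and 100 are in none.

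Cathepsin B had the largest gap of the kept genes. CTSB, a lysosomal protease, lies on chromosome 8, positions 7818080 to 7826333, plus strand, with 9 exons in the coordinates of the files, for which no source used here names a genome build. It had 235 CPM in Control 4 and 687 CPM in Maltreated 3. In Control 1 to 3 it had 0.812, 5.07 and 6.66 CPM, and in Maltreated 1 and 2 it had 1.43 and 4.22 CPM. The gap was 30.7-fold, and in the high libraries none of its exon counts lay in a run of equal neighbours, a pattern described further on.

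CD74 came next, and after it SDCBP, the adaptor syntenin that helps to form exosomes. SDCBP had 38.2 CPM in Control 4 and 58.5 CPM in Maltreated 3, against 0, 1.63 and 1.5 CPM in Control 1 to 3 and 2.38 and 1.79 CPM in Maltreated 1 and 2. PSME1, an interferon-inducible activator of the proteasome, had 32.2 and 27.5 CPM in Control 4 and Maltreated 3, against 0.391 to 2.17 CPM. NRP1, a co-receptor for semaphorins and VEGF, had 51.4 and 47.2 CPM against 0 to 4.40 CPM. For these 3 genes the 2 high libraries lay close together and the low libraries did not reach them. Reads covered 18.4, 100 and 3.67% of their exons in Control 4, and 75.6, 93.8 and 42.3% in Maltreated 3. The low libraries reached 48.8, 100 and 13.4%.

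FABP5, a fatty acid binding protein of macrophages and epithelia, had 36.5 CPM in Control 4 and 127 CPM in Maltreated 3, against 0.181 to 3.33 CPM. The calcium-binding protein gene S100A11 had 22.4 and 73.2 CPM against 0 to 1.67 CPM. CTSL1, the cathepsin L protease, had 24.6 and 65.1 CPM against 0 to 2.13 CPM. All 3 were higher in Maltreated 3 than in Control 4. THBS1, thrombospondin, had 20.7 and 40.8 CPM in Control 4 and Maltreated 3 against 0 to 1.76 CPM. In Maltreated 3 it had 436 sense and 338 antisense counts. PPP1R15A, a stress-induced phosphatase subunit, had 19.8 and 27.3 CPM against 0.406 to 1.83 CPM. The levels of the receptor phosphatase PTPRJ were 29.3 and 32.6 CPM against 0.102 to 2.60 CPM. ARHGAP30, a GTPase regulator, had 34.4 and 24.1 CPM against 0.260 to 2.53 CPM. In Control 4 the covered share of the exons ran from 3.53% for PTPRJ to 100% for PPP1R15A. In Maltreated 3 it ran from 43.1% for ARHGAP30 to 100% for CTSL1. The PTPRJ share in Control 4 lay within the 0.612 to 8.02% of the low libraries.

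Among genes that the filter dropped, IFI6, an interferon-induced mitochondrial protein, had the largest gap. It had 58.7 CPM in Control 4 and 268 CPM in Maltreated 3, against 0.305 CPM in Control 1, 0.684 CPM in Maltreated 1 and 0 in the other 3. CREG1, a lysosomal glycoprotein, had 41.6 and 69.9 CPM against 0 to 0.500 CPM. IDO1, the tryptophan-degrading enzyme induced by interferon gamma, had 38.7 CPM in Control 4 and 0.775 times that level in Maltreated 3, against 0 to 0.181 CPM. In Control 4 it had 206 sense and 173 antisense counts. SRGN, the granule proteoglycan serglycin, had 35.7 and 44.2 CPM against 0 to 1.5 CPM. TLR4, the receptor for bacterial lipopolysaccharide, had 65.3 CPM in Control 4 and 25.6 CPM in Maltreated 3 against 0 to 0.500 CPM, and TREM1, an activating receptor of neutrophils and monocytes, had 23.3 and 16.0 CPM against 0 to 0.0977 CPM. In the low libraries each of these 6 genes had at most 1.5 CPM. The same set held the large scaffold gene AHNAK2, with 40.1 and 38.2 CPM, and KCTD12, with 23.7 and 37.3 CPM.

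**Figure D2:**
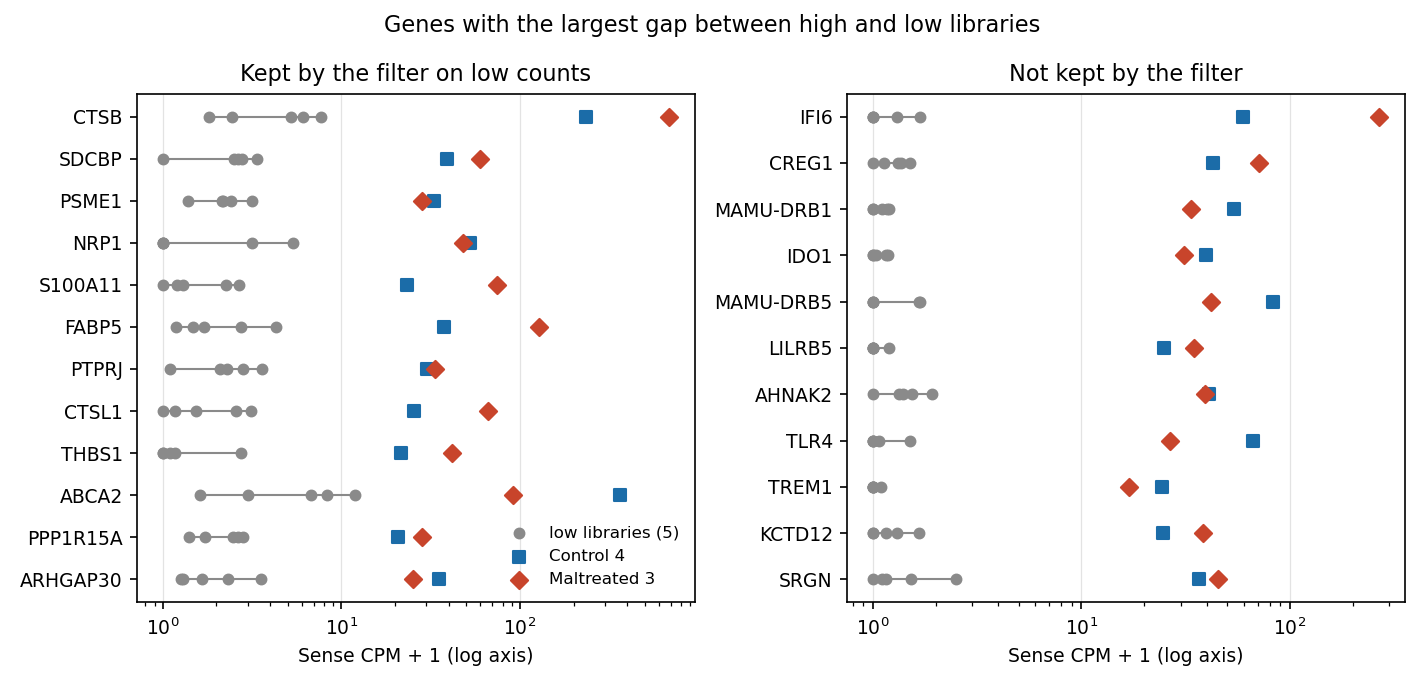
Sense CPM + 1 on a log axis of genes with the largest gap between high and low libraries, CD74 and TYROBP left out, with 12 genes kept by the filter (left) and 11 genes not kept (right). Grey points are the 5 low libraries, the blue square is Control 4 and the red diamond Maltreated 3; CTSB has 235 and 687 CPM in the high libraries and at most 6.66 CPM in the low ones.

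The MHC class II molecules, which present peptides to helper T cells, were at no more than 1.30 CPM in the low libraries. Of 14 genes of class II and its loading with a count, 8 were higher in both high libraries and 4 of them by 4-fold. The median difference was 1.71 on the log2 scale, against 0.09 over all genes. Among the 8, CD86 was barely so, with 1 count in Control 4 (0.188 CPM) and 1 in Control 3 (0.167 CPM). MAMU-DRA had 40.3 CPM in Control 4 and 28.7 CPM in Maltreated 3, against 0.102, 1.27 and 0.167 CPM in Control 1 to 3 and 0 and 1.30 CPM in Maltreated 1 and 2. MAMU-DQA1 had 15.6 and 4.86 CPM against 0 to 0.167 CPM, and MAMU-DMA, which loads the peptide, had 26.1 and 2.15 CPM against 0 to 0.0651 CPM. MAMU-DQB1 had 6.21 and 10.9 CPM against 0 to 0.362 CPM. In Control 4, MAMU-DQA1 had 83 sense and 76 antisense counts, and MAMU-DQB1 had 33 and 200. MAMU-DRB1 had 52.9 and 32.5 CPM and MAMU-DRB5 had 82.4 and 40.7 CPM, against at most 0.684 CPM. The DRB genes are near-identical copies, so that the split of reads between them is uncertain. CIITA, the master switch of class II transcription, had 1.32 CPM in Control 4 and 4.30 CPM in Maltreated 3, and Maltreated 1 lay between them with 1.60 CPM.

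Of the 3 genes of this list that passed the filter, which act in loading or costimulation, none was separated widely. IFI30, a thiol reductase of antigen processing, had 29.2 and 165 CPM, and Control 3 reached 28.3 CPM. CTSS, the cathepsin that trims the invariant chain, had 53.2 and 124 CPM against 25.7 to 47.6 CPM. CD40, a receptor for T cell help, overlapped, with 3.39 and 12.5 CPM against 9.75 to 54.6 CPM.

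Most MHC class I genes were higher in both high libraries. Of 15 genes of class I and its loading, 10 were higher, 3 of them by 4-fold, and 5 overlapped, with a median log2 difference of 1.94. MAMU-A had 404 and 478 CPM in Control 4 and Maltreated 3, against 36.5 to 66.2 CPM, although other class I genes are near-identical and may share its reads. B2M, the light chain of class I, had 115 and 253 CPM, against 1.62, 4.88 and 6.0 CPM in Control 1 to 3 and 1.04 and 18.3 CPM in Maltreated 1 and 2. TAP1, the peptide transporter, had 31.8 CPM in Control 4 and 6.17 CPM in Maltreated 3 against 0 to 1.93 CPM. In Control 4 reads covered 84.0% of the B2M exons but 3.45% of those of TAP1. The TAP1 share was 33.5% in Maltreated 3 and 0 to 20.4% in the low libraries. CALR, a chaperone of class I assembly, had 98.4 and 187 CPM against 11.3 to 27.6 CPM. CANX, its membrane-bound relative, overlapped at 124 and 262 CPM against 120 to 204 CPM.

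Most lysosomal genes were higher in both high libraries. Of 35 genes with a count, 20 were higher in both high libraries and 6 by 4-fold, with a median log2 difference of 2.42. Their summed level was 1170 CPM in Control 4 and 3701 CPM in Maltreated 3, against 299 to 537 CPM in the low libraries. CD63, a membrane protein of late endosomes, had 115 and 575 CPM, with 69.5 CPM in Maltreated 2 and 0 to 16.1 CPM in the rest. PSAP, the precursor of the saposins, had 78.1 and 467 CPM against 4.62 to 19.3 CPM, and CTSD, an aspartic protease, had 52.5 and 287 CPM against 0.181 to 14.1 CPM. Some members stood out in Maltreated 3 only. LIPA, the acid lipase, had 174 CPM there and 0.376 CPM in Control 4, against 0 to 7.66 CPM, and GRN, progranulin, had 140 and 7.15 CPM against 0 to 14.3 CPM.

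Iron-handling genes were led by the ferritins. FTH1, the heavy chain of the iron store, had 128 CPM in Control 4 and 461 CPM in Maltreated 3, against 4.67 to 18.5 CPM, and FTL, the light chain, had 116 and 281 CPM against 17.5 to 36.5 CPM. HMOX1, which breaks down haem, had 15.4 and 8.04 CPM against 0 to 1.000 CPM. Of 16 genes, 6 were higher and 2 of them by 4-fold, with a median log2 difference of 1.19. TFRC, the transferrin receptor, had 44.6 and 49.7 CPM against 27.7 to 39.0 CPM, but its small difference of 0.52 (log2) turned to -0.02 when only the part of each exon count above its lower neighbour was used.

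Most interferon-response genes were higher in both libraries, each with other leading genes. Of 26 genes with a count, 18 were higher and 6 by 4-fold, with a median log2 difference of 2.15, and their sum was 622 CPM in Control 4 and 764 CPM in Maltreated 3 against 66.0 to 115 CPM. GBP1, a guanylate-binding protein induced by interferon gamma, had 34.4 and 41.4 CPM, with 5.68 CPM in Maltreated 2 and 0.203 to 0.904 CPM in the other low libraries. IFIT3 had 19.4 and 34.7 CPM against 0 to 0.487 CPM. IRF1 had 57.0 CPM in Control 4 and 2.25 CPM in Maltreated 3, whereas MX1, an antiviral GTPase, had 8.65 and 57.2 CPM, both against at most 1.04 CPM. ISG15, a ubiquitin-like protein, overlapped in part, with 17.9 and 6.64 CPM and 7.50 CPM in Control 3. EIF2AK2, a kinase that senses double-stranded RNA, also overlapped, with 62.4 and 73.6 CPM against 19.2 to 68.6 CPM.

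Of 31 cytokine and NF-kB genes, 13 were higher and 4 by 4-fold, with a median log2 difference of 0.75. SOD2, the mitochondrial superoxide dismutase, had 117 and 159 CPM against 5.19 to 43.1 CPM. NFKBIA, the inhibitor of NF-kB, had 21.4 and 11.8 CPM against 0 to 1.99 CPM. NFKB1, with 27.5 and 34 CPM, and TGFB1, with 18.1 and 34.3 CPM, both overlapped with the low libraries, which reached 31.8 and 18.3 CPM. IL8, a neutrophil attractant, and CD86, a costimulatory ligand, were high mainly in Maltreated 3, at 19.4 and 13.4 CPM against 0.752 and 0.188 CPM in Control 4. The low libraries had at most 0.333 and 0.167 CPM.

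Monocyte and macrophage genes were split. Of 27 genes with a count, 12 were higher in both, 4 of them by 4-fold, and 15 overlapped, with a median log2 difference of 1.86. The sum was 321 CPM in Control 4 and 858 CPM in Maltreated 3 against 32.2 to 85.3 CPM. TREM2, a lipid-sensing macrophage receptor, had 9.03 and 8.70 CPM and was at 0 in all 5 low libraries, each of which allows no more than the CPM of 3 counts. APOE had 51.7 and 192 CPM against 2.34 to 12.2 CPM, and GPNMB, a glycoprotein of lipid-laden macrophages, had 56.1 and 273 CPM against 5.48 to 27.9 CPM. CSF1R, the receptor for macrophage colony-stimulating factor, had 26.7 and 35.7 CPM against 0.162 to 10 CPM, and CD163, the haemoglobin scavenger receptor, had 28.6 and 50.9 CPM against 6.30 to 17.0 CPM. Among those that overlapped, AIF1, an actin-binding protein of macrophages, and FCGR2B, an inhibitory Fc receptor, had no sense count in Control 4 and 14.4 and 17.8 CPM in Maltreated 3, against at most 5.69 and 6.83 CPM. C1QC, a chain of complement C1q, had 2.07 and 0.935 CPM against 0.260 to 2.50 CPM. The scavenger receptor MARCO and the complement receptor VSIG4 had at most 0.724 CPM in any library.

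Pan-leukocyte genes followed the same order in part. Of 23 genes, 10 were higher and 5 by 4-fold, with a median log2 difference of 1.63. LAPTM5, a lysosomal protein of blood cells, had 22 and 51.7 CPM against 0 to 4.00 CPM, and PTPN6, the phosphatase SHP-1, had 18.8 and 26.5 CPM against 0 to 2.44 CPM. CD48 had 19.4 and 4.40 CPM, and CD53 had 4.33 and 8.33 CPM, against at most 0.325 CPM. Reads covered 8.94 and 0.133% of their exons in Control 4, and 66.6 and 66.1% in Maltreated 3. The low libraries reached 8.94 and 9.25%. CD53 had 23 sense and 32 antisense counts in Control 4. LCP1, the actin bundler plastin, had 75.2 and 46.7 CPM against 5.50 to 17.4 CPM. CD44, a hyaluronan receptor, had 13.7 CPM in Control 4, within the 8.53 to 15.6 CPM of the low libraries, and 114 CPM in Maltreated 3. The largest value of this list belonged to a low library: VAV1, a guanine nucleotide exchange factor of blood cells, had 1047 CPM in Control 3, against 62.6 CPM in Control 4 and 269 CPM in Maltreated 3. Of the VAV1 counts in the low libraries together, 34.2% lay in runs of equal exons. Summed over the list, Control 3 had 1121 CPM, above Maltreated 3 with 875 CPM and Control 4 with 339 CPM.

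Neutrophil and phagocyte genes were unevenly spread. Of 27 neutrophil genes with a count, 10 (37.0%) were higher, against 9.68% of all genes, and 2 by 4-fold. The median log2 difference was 0.79. Some of the 10 rest on few counts, with 3 and 4 for S100A9 and 2 and 12 for MPO in Control 4 and Maltreated 3. For ELANE and PRTN3, also among the 10, 88.9 and 100% of the counts over all libraries lay in runs. CYBA, a subunit of the NADPH oxidase, had 7.34 and 13.9 CPM against 0.203 to 2.43 CPM. The granulocyte genes S100A8, S100A9 and MPO had at most 1.12 CPM in any library, and S100A12 had no sense count in any. Of 17 complement, coagulation and phagocyte genes, 7 were higher, 1 of them by 4-fold, and 1 was lower, with a median log2 difference of 1.55. ITGAX, the integrin chain CD11c, had 61.5 and 93.7 CPM against 0.203 to 10.5 CPM. MERTK, a receptor for engulfing dying cells, had 100 and 63.1 CPM against 16.3 to 53.4 CPM. STAB1, a scavenger receptor, overlapped, with 65.3 and 35.1 CPM and 131 CPM in Control 1.

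Lymphocyte genes gave no common picture. Of 23 T and NK cell genes, 7 (30.4%) were higher, against 9.68% of all genes, and 0 by 4-fold. Some of the 7 had low levels, such as NKG7 with 1.13 and 0.561 CPM and GZMK with 0.940 and 0.561 CPM. The median log2 difference was 0.71, and CD3D, CD3G and CD247 had no sense count in either high library. CD8A, a co-receptor of cytotoxic T cells, had 11.1 and 3.46 CPM against 0 to 1.62 CPM. The summed list was at 166 CPM in Control 4, of which LCK made up 113 CPM, and at 34.2 CPM in Maltreated 3, against 2.67 to 32.1 CPM. Of 13 B and plasma cell genes none was higher in both, and MS4A1 and CD79B had no sense count in either. PAX5 had 15.6 CPM in Control 4 and 1.59 CPM in Maltreated 3. CR2, a complement receptor of B cells, was at 0 CPM in Control 4 and 3.93 CPM in Maltreated 3, against 1.86 to 26.4 CPM. None of 8 mast cell, basophil and eosinophil genes with a count was higher in both. CPA3, a protease of mast cells, had no sense count in any library. On the other strand it had 29678 counts in Maltreated 3, with 2698 on each of its 11 exons, against 0 in Control 4 and 0 to 154 in the low libraries.

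Of 10 dendritic cell genes, 2 were higher and 0 by 4-fold, with a median log2 difference of 0.06. FLT3, with 68.7 and 105 CPM, ZBTB46, with 22 and 34.3 CPM, and CD83, with 12 and 33.4 CPM, are the 3 of that list that passed the filter. Their low libraries spanned 76.0 to 94.1, 24.1 to 74.4 and 9.96 to 42.9 CPM, so that none was higher in both high libraries.

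Most genes used by nearly every cytoplasm were higher as well. Of 30 cytoplasmic housekeeping genes, 20 were higher and 3 by 4-fold, with a median log2 difference of 1.89. ACTB, cytoplasmic actin, had 175 CPM in Control 4 and 727 CPM in Maltreated 3, against 10.2, 24.8 and 28 CPM in Control 1 to 3 and 14.2 and 22.9 CPM in Maltreated 1 and 2. GAPDH, the glycolytic enzyme of body cells, had 61.5 and 156 CPM against 3.66 to 20.1 CPM. GAPDHS, its sperm-specific counterpart, had 473 and 338 CPM, within the 338 to 551 CPM of the low libraries in Control 4 and at their lower edge in Maltreated 3. VIM, the intermediate filament vimentin, had 63.0 and 265 CPM against 1.73 to 19.0 CPM. ALDOA, aldolase, had 556 and 273 CPM against 58.8 to 171 CPM, while FAU, a ribosomal fusion protein, overlapped at 302 and 494 CPM against 305 to 642 CPM.

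Ribosomal protein genes were not set apart widely, and the 2 high libraries differed in them. Of 84 genes, 18 (21.4%) were higher in both, against 9.68% of all genes, and 0 by 4-fold. The median log2 difference was 0.43, against 0.09 over all genes. Above every low library were 45 of the 84 in Maltreated 3 and 25 in Control 4. Over all 17813 genes with a count it was 4398 and 5048. Their summed level was 18464 CPM in Control 4, below the 20189 to 28511 CPM of the low libraries, and 31682 CPM in Maltreated 3, above them. RPL38, RPL35 and RPL28, the 3 with the highest mean in the 2 high libraries, overlapped, with 8314, 2126 and 1138 CPM in Control 4 and 13591, 3862 and 1841 CPM in Maltreated 3. RPLP0, a stalk protein of the ribosome, had 89.5 and 103 CPM against 10.7 to 47.3 CPM.

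**Figure D3:**
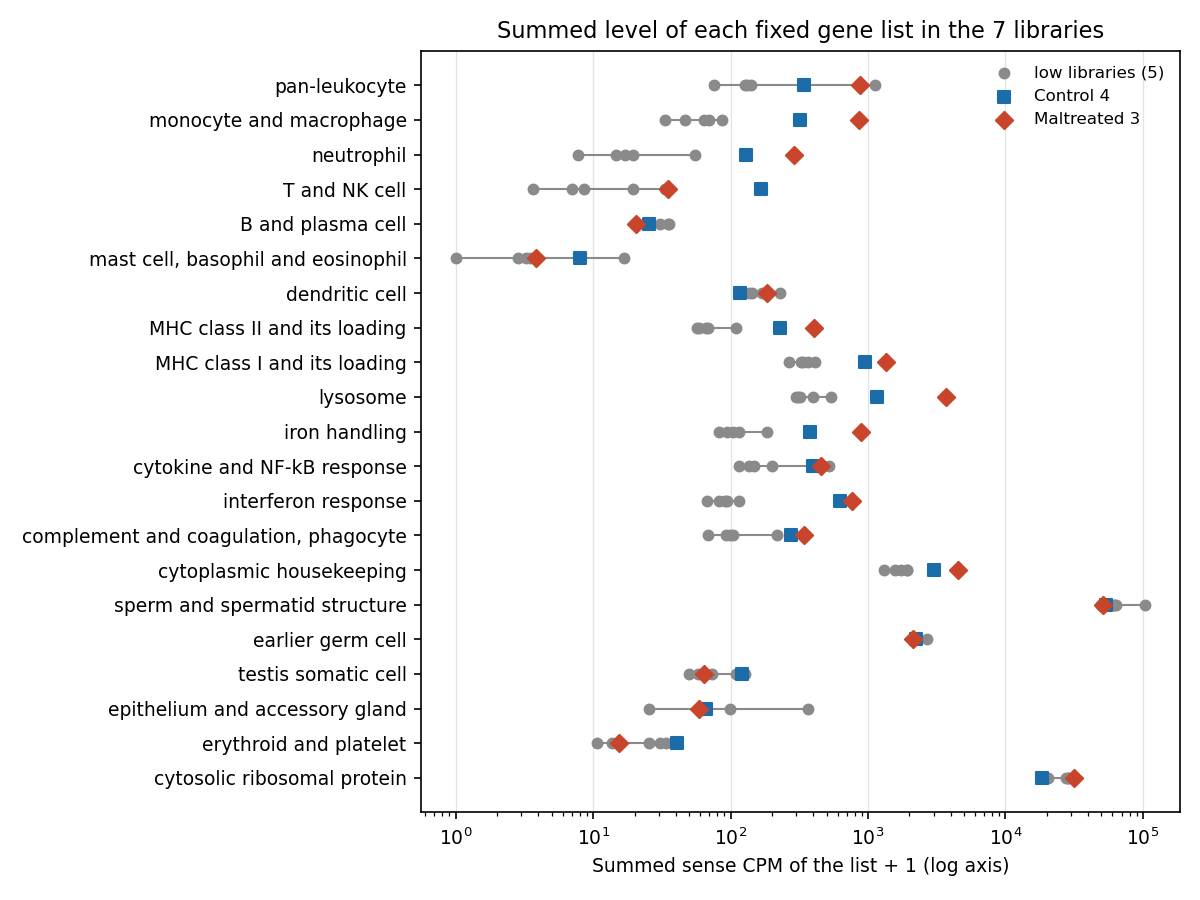
Summed sense CPM + 1 of each gene list on a log axis, with 1 point per library; grey points are the 5 low libraries, the blue square is Control 4 and the red diamond Maltreated 3. Lysosome, interferon, iron and MHC sums stand above all low libraries in both, while the sperm and earlier germ cell sums lie at or near the low edge of the low libraries.

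The sperm transcripts themselves were not set apart in both high libraries together, but the 2 libraries differed. Of 38 sperm and spermatid structure genes, 0 were higher and 0 lower in both, with a median log2 difference of 0.04. Above every low library were 15 of the 38 in Control 4 and 1 in Maltreated 3. Over all 17813 genes with a count it was 5048 and 4398. Protamine 2, which packs sperm DNA, had 29295 CPM (PRM2) in Control 4 and 29558 CPM in Maltreated 3, against 38695, 37107 and 38340 CPM in Control 1 to 3 and 72127 and 29233 CPM in Maltreated 1 and 2. PRM1 had 5110 and 6254 CPM against 5931 to 9222 CPM, and TNP1, a transition protein, had 4670 and 6458 CPM against 5523 to 9130 CPM. Control 4 was the lowest of all libraries for PRM1 and TNP1, and second lowest for PRM2. Their sum with the rest of the list was 53634 CPM in Control 4 and 51581 CPM in Maltreated 3, within the 49501 to 104150 CPM of the low libraries.

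Several sperm and germ cell genes set Control 4 apart from Maltreated 3. CRISP2, a secreted protein of the acrosome and tail, had 1554 CPM in Control 4 and 298 CPM in Maltreated 3, against 216 to 420 CPM. AKAP4, the main protein of the fibrous sheath, had 195 and 34.3 CPM against 21.0 to 69.7 CPM, and SYCP3, of the meiotic chromosome axis, had 26.7 and 1.96 CPM against 0.833 to 3.76 CPM. SPACA1, an acrosome membrane protein, had no sense count in Control 4 and 44.3 CPM in Maltreated 3, against 9.58 to 65.0 CPM. In all 4 Maltreated 3 lay within the low libraries.

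Of 28 earlier germ cell genes, 1 was higher and 2 were lower in both, with a median log2 difference of -0.15. The higher one was MOV10L1, a helicase of the piRNA pathway, with 259 and 207 CPM against 161 to 198 CPM. TDRD9, with 598 and 775 CPM, and PIWIL2, with 213 and 157 CPM, had low libraries at 641 to 880 and 123 to 198 CPM.

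Markers of other tissues that could enter an ejaculate or a testis-derived sample did not follow the split. Of 24 epithelium and accessory gland genes, 0 were higher and 1 was lower in both, and their sums of 65.1 and 57.6 CPM lay within 24.3 to 364 CPM. TGM4, a prostate transglutaminase, had 246 CPM in Control 2, against 1.88 and 21.0 CPM in Control 4 and Maltreated 3. MUC1 had 23.7 and 10.6 CPM against 0 to 68.2 CPM, and KLK4 had 3.76 and 10.5 CPM against 1.04 to 12.3 CPM. Of 21 testis somatic genes 1 was higher, and the sums of 120 and 63.2 CPM lay within 49.2 to 126 CPM. Among these, COL1A1 had 36.3 CPM in Control 4 and 1.87 CPM in Maltreated 3, VWF of endothelium had 1.69 and 31.9 CPM, and WT1 of Sertoli cells had 15.2 and 1.31 CPM. None of 15 erythroid and platelet genes was higher in both, and HBB, the beta globin, had 3.39 and 5.43 CPM against 1.12 to 4.52 CPM. HEMGN had 16.6 and 6.64 CPM against 0.325 to 8.83 CPM, and SLC4A1 had 0.376 and 0 CPM against 0 to 6.49 CPM. The part of these cells in the differences was not tested.

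Genes lower in both high libraries had small gaps and low levels. SUPT3H, a subunit of a transcription coactivator complex, had the highest level of the 8 with the largest gaps, with 47.4 and 58.7 CPM in Control 4 and Maltreated 3, against 123, 129 and 123 CPM in Control 1 to 3 and 164 and 139 CPM in Maltreated 1 and 2. The low libraries lay close together, and the gap was 2.08-fold. IL5RA, a receptor chain for interleukin 5, had 0 and 3.93 CPM, against 10.2 to 113 CPM. CDRT4, which had the largest gap of 2.69-fold, had 0.188 and 0.842 CPM against 3.96 to 14.2 CPM. The other genes of this group were TOX3, ZDHHC13, SLC26A7, PRB4 and NAALADL2, with at most 2.90 CPM in a high library and gaps of 2.11- to 2.62-fold. For PRB4 all counts in the high libraries lay in runs of equal exons.

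The 2 high libraries were not alike in which leukocyte genes they held, as the plot of list members in one against the other shows. The ratios given here are single libraries against each other, with exact 95% binomial intervals that cover counting error only. Maltreated 3 had more of MSR1, a macrophage scavenger receptor, at 56.7 CPM against 2.07 CPM, a ratio of 27.4 (15.2 to 55.2). SPI1, the transcription factor PU.1 of myeloid cells, had 21.9 CPM against 0.940 CPM, a ratio of 23.3 (9.83 to 72.3). CYBB, the catalytic chain of the NADPH oxidase, had 38.8 CPM against 1.5 CPM, a ratio of 25.8 (13 to 60.2). LSP1, an actin-binding protein of leukocytes, had 84.6 CPM against 10.9 CPM. FCER1G, an adaptor of Fc receptors, had 16.7 CPM in Maltreated 3 and no sense count in Control 4, and CD14, a receptor for lipopolysaccharide, had 13.6 and 1.88 CPM.

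Control 4 had more of other genes. C1QB, a chain of complement C1q, had 64.1 CPM in Control 4 against 1.59 CPM in Maltreated 3, a ratio of 40.3 (24.8 to 70.1). C1QA, its partner chain, had 10.5 against 4.12 CPM, a ratio of 2.56 (1.69 to 3.89). CSF3R, the receptor for granulocyte colony-stimulating factor, had 30.7 against 4.68 CPM, a ratio of 6.56 (4.75 to 9.19). MS4A7 had 35 against 10.1 CPM. IL7R, the interleukin 7 receptor, had 19.2 against 3.46 CPM, CCR7, which guides cells to lymph nodes, had 11.1 against 0.374 CPM, and CD3E had 3.20 against 0.187 CPM.

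**Figure D4:**
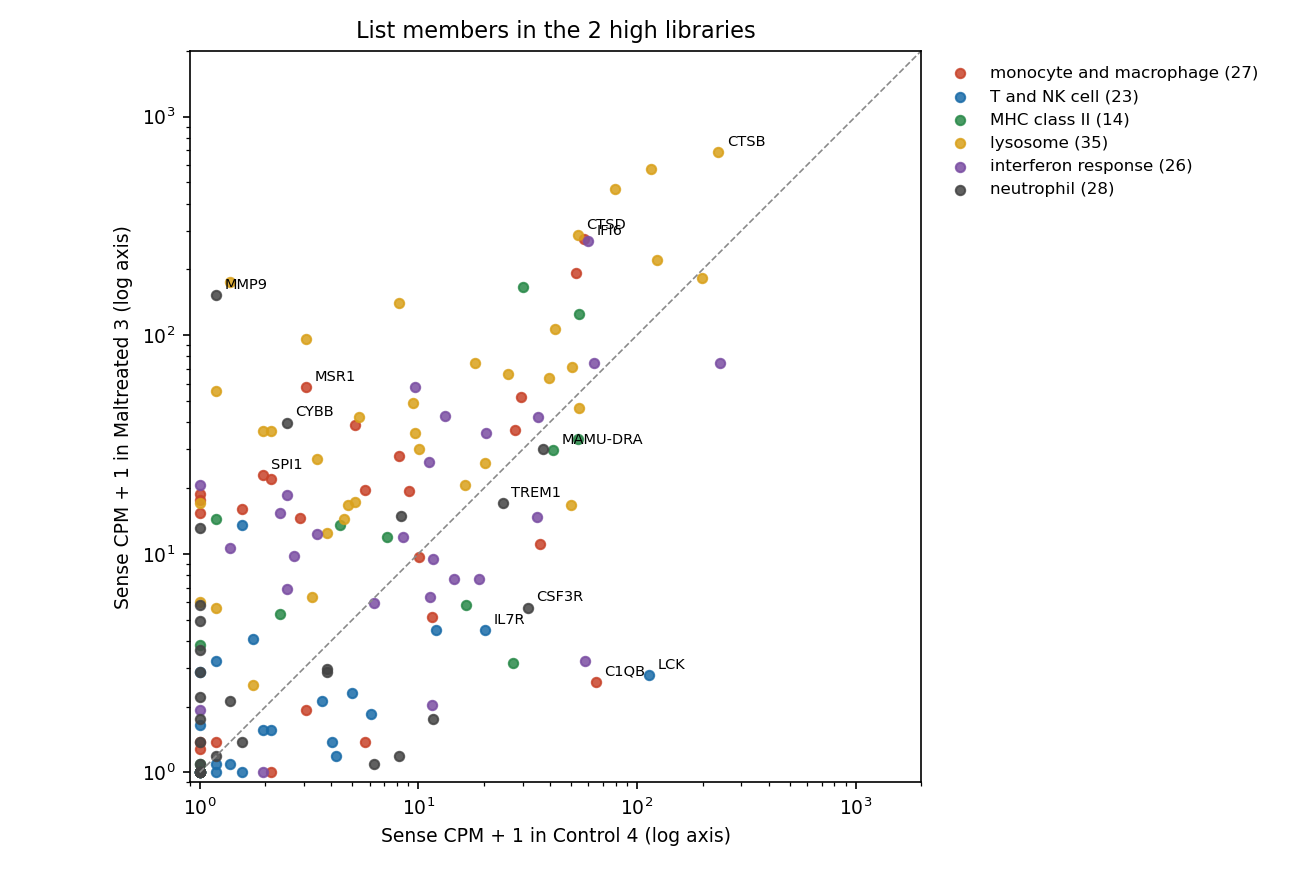
Sense CPM + 1 of the members of 6 gene lists in Control 4 (x axis) and Maltreated 3 (y axis), both log axes, with 1 point per gene and the dashed line at equal levels. Most lysosomal genes lie above the line, with CTSB at 235 and 687 CPM, while C1QB, CSF3R, LCK and IL7R lie below it.

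Some genes stood out mainly in 1 of the 2 high libraries, and here the 2 libraries differed in the shape of their exon counts. The exon files give a count for every exon. A run is called here an exon whose count equals that of its neighbours. By 4-fold over all 6 other libraries, 277 genes were higher in Control 4, and in 67 of them (24.2%) at least 50% of the counts lay in runs. The same held for 1 of 70 genes (1.43%) of Maltreated 3 and for 2 of the 49 genes (4.08%) higher in both. The share of all kept genes with that many counts in runs was not counted for each library. Whether these shares differ from it was not tested.

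The 6 genes that stood out most in Control 4 were OSBPL5, CARS, PRAM1, CAMSAP3, PSG3 and FASN. OSBPL5 and CARS are neighbours on the minus strand of chromosome 11, at 2873327 to 2956232 and 2792245 to 2849185. OSBPL5, of the oxysterol-binding family, had 532 CPM in Control 4 and 0.0935 CPM in Maltreated 3, and 19 of its 22 exons had exactly 130 counts. CARS, the cysteine tRNA ligase, had 1392 and 15.7 CPM against 6.66 to 30.3 CPM, and 14 of its 22 exons had 387 counts. In CAMSAP3, a microtubule minus-end binding protein, all 17 exons had 69 counts, and its high minus low difference of 4.49 (log2) became -0.47 on exon counts above the lower neighbour. In PRAM1, a myeloid adaptor, all 11 exons had 78 counts. FASN, the fatty acid synthase, had 353 and 3.18 CPM, with 37 of 43 exons at 37 counts. PSG3 had 120 CPM in Control 4 and no sense count in Maltreated 3, with 16.9% of its counts in runs. Its antisense counts were 1043 in Control 4, above its 638 sense counts, and 797 in Maltreated 3. LCK, the T cell kinase, also had runs, with 46 counts on 12 of 13 exons in Control 4 and 1.78 CPM in Maltreated 3.

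The genes with the largest gap of Maltreated 3 over all other libraries were LGALS3, ITGB1, FCGR3B, MMP9, FN1 and A2M. In Maltreated 3, 0 to 1.63% of their counts lay in runs. Of these, LGALS3, FCGR3B and FN1 were also above every low library in Control 4, by 1.72-, 2.35- and 2.83-fold on CPM + 1. LGALS3, galectin 3 of macrophages, had 543 CPM in Maltreated 3, 30.7 CPM in Control 4 and 0.651 to 17.4 CPM in the low libraries. FN1, fibronectin, had 1167 CPM in Maltreated 3, 93.9 CPM in Control 4 and 4.54 to 32.5 CPM in the low libraries. MMP9, the gelatinase of neutrophils and macrophages, had 152 CPM against 0.188 CPM in Control 4 and 11.2 CPM in Control 3. FCGR3B, an Fc receptor, had 89.7 and 5.64 CPM against 0 to 1.83 CPM, A2M, a protease inhibitor, had 169 and 8.28 CPM against 0.162 to 13.5 CPM, and ITGB1, an integrin chain, had 63.1 and 1.69 CPM against 1.000 to 3.62 CPM.

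One block of neighbours had runs in both high libraries. ABCA2, a lipid transporter, was among the 12 kept genes with the largest gap, with 361 CPM in Control 4 and 90.6 CPM in Maltreated 3 against 0.609 to 11 CPM. It lies on the minus strand of chromosome 9, at 109749926 to 109771971, beside NPDC1, ENTPD2 and SAPCD2, which reach to 109814834. In Control 4, 45 of 48 exons of ABCA2 had 39 counts, and so had all 9 exons of NPDC1, all 9 of ENTPD2 and 5 of 6 of SAPCD2. In Maltreated 3 the same 4 genes had 20 counts on 45, 8, 9 and 6 exons. Each of the 4 genes is among the 142 that were higher in both by 4-fold. The labels do not say how reads were assigned to exons. Of the 142 genes, 14 had at least 50% of their counts in the high libraries in runs, LILRB5, a leukocyte receptor gene with 23.9 and 33.9 CPM, among them (63.7%).

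The groups of the study were compared last, with the edgeR quasi-likelihood test over 10719 genes. This is the only comparison that the labels define, and each group holds 1 high library. Of the 10719 genes 0 (0%) passed an adjusted p of 0.05, the lowest adjusted p being 0.999, and 191 genes had an unadjusted p under 0.05. The log2 fold change, Maltreated over Control, was 3.38 ± 1.45 (SE) for PTPRC, 4.08 ± 1.95 for CD68, 2.71 ± 1.37 for ITGAM, 3.00 ± 1.64 for LYZ and -0.62 ± 1.99 for CD74, each with an edgeR adjusted p of 0.999 over 4 Control and 3 Maltreated libraries. TYROBP was not tested, since the filter dropped it.

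Without Control 4 and Maltreated 3, 0 of 10827 genes passed, with 274 at an unadjusted p under 0.05. With the log2 marker sum as a covariate 0 genes passed, with 216 under 0.05. The medians of the gene lists are over their tested members. For the monocyte and macrophage genes the median log2 fold change was 1.25 with all libraries (13 genes) and -0.48 without the 2 (10 genes), against -0.02 and -0.05 over all genes tested. The lysosomal genes had 1.32 (29 genes) and 0.00 (24 genes), the housekeeping genes 0.73 and 0.03, and the pan-leukocyte genes 1.04 and 0.47. The interferon genes had -0.12 and -0.17. Because the 2 libraries were left out for their leukocyte markers, a shift in genes that go with these markers is part of that choice. No MHC class II molecule was tested. With 1 high library in each group, the group and the identity of the high library cannot be told apart.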

How the data were processed

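Total RNA of 7 sperm libraries was analysed from the deposited tables. The deposited table of genes gives, per the file headers, a read count without normalization and a covered fraction for each gene, separately for sense and antisense reads. The exon files hold a deposited count for each exon, and the sums over exon entries equalled the gene counts in all 18282 genes of all 7 libraries. STAR, featureCounts and bedtools are named in the submitters' processing notes; no source used here gives their versions or roles, or the genome build. RTN3 and ZC3HAV1, which the table lists on either strand, were not used. The covered fraction is printed as a percent.

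CPM were computed over all sense counts of a library, which ran from 5316383 to 30715268. High and low libraries were compared on log2(CPM + 1) without a test. Maltreated and Control were compared with edgeR 4.0.16 in R 4.3.3 (TMM, filterByExpr with a minimum count of 10 and a minimum total of 15, quasi-likelihood F test, Benjamini-Hochberg over all genes tested, threshold 0.05). DESeq2 1.42.0 gave an alternative. The edgeR step was run on simulated data, with an outcome not given here. The biological coefficient of variation between libraries of a group was 0.858. That 0 genes were called does not show that the groups are alike. Replicates are separate samples by label; p-values measure the spread between them. Intervals and floors (3 counts) hold counting error only: without molecular identifiers, reads are not separate molecules.

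The markers, gene lists and rules were chosen with earlier results of these data known. Named are the 6 markers, and the 12 other kept genes with the largest gap upward and the 8 downward. Named also are, for each high library, the 6 genes with its largest gaps over all other libraries. So are the 3 best expressed kept members of each of 21 lists. In addition 55 genes, the 12 unfiltered genes with the largest gap, the neighbours of ABCA2, and the lists' other members were chosen after their values were seen. Some genes that these rules name are not reported here. Alternatives covered scaling, pseudocounts of 0.2 and 5 CPM, thresholds of 100 and 400 CPM, a 2-fold gap, the filter, the strand, exon runs, a replicate block, a covariate and each library left out. Added after the data were seen were the macrophage list for the split, unique exon entries, reduced exon counts for the marker sum and each marker left out.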

Additional observations from a re-analysis of the deposited data

Results flagged for a closer look

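Among the 4 Control libraries, 1 library stood apart from the other 3 in 40 of 182 measures: the gap to its nearest neighbour exceeded Dixon's 95% critical share of the whole range of the group, which chance alone gives in about 1 of 20. Levels were taken as log2(CPM + 1); on CPM it was 87 of 182. Most of these genes were named because they are high in Control 4 or in both high libraries, and TYROBP is a marker of the split. Their number and the gaps given below thus say nothing beyond the choice. The rate of 1 in 20 is no yardstick for them. The 3 Maltreated libraries are too few for this check.

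Control 4 was the highest in 32 genes. The gap was 1.00 of the range for PRAM1, LILRB5, TREM1, MAMU-DMA, TREM2, CD53, CD48 and MPO, whose other 3 Control libraries had no count; for MPO this rests on 2 counts. For MHC genes it was 0.844 for MAMU-DQB1, 0.885 for MAMU-DRB5, 0.916 for MAMU-A, 0.945 for MAMU-DQA1 and 0.961 for MAMU-DRB1. For interferon-response and related genes it was 0.86 for PSME1, 0.864 for GBP1, 0.883 for MX1, 0.905 for IFIT3, 0.915 for IRF1, 0.935 for IFI6 and 0.955 for IDO1. For myeloid receptors and enzymes it was 0.835 for MSR1, 0.840 for TYROBP, 0.879 for MS4A7 and 0.903 for TLR4, and for lymphocyte genes 0.884 for CD3E, 0.933 for CCR7 and 0.949 for IL7R. For the remaining genes it was 0.841 for KCTD12, 0.842 for FTL, 0.892 for CREG1, 0.895 for AHNAK2 and 0.95 for THBS1.

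Control 4 was the lowest in SUPT3H (0.952), PRM2 (0.849) and SPACA1 (0.852, no count), and in the summed sperm and spermatid structure genes (0.834), at 53634 CPM. Control 3 was the highest in MMP9 (0.836, 11.2 CPM) and CD3G (1.00, from 3 counts). Control 1 was the lowest in the summed testis somatic genes (0.846, 49.2 CPM) and had the most sense counts (0.849, 9847743 counts). What sets these libraries apart was not tested.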

How the results depend on the processing

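The split into 2 high and 5 low libraries held with TMM-scaled CPM, both strands together, thresholds of 100 and 400 CPM, reduced exon counts and the monocyte and macrophage list. It also held with each of 5 markers left out, but with CD74 left out it found 1 high library. The pan-leukocyte list found 3, Control 3 added. The 49 genes higher in both by 4-fold became 21 with a pseudocount of 5 CPM, 142 without the filter and 192 at 2-fold, and 56 to 406 with 1 library left out; Control 3 left out gave 76, Control 4 167 and Maltreated 3 406. Of genes lower in both, 0 became 3 with a pseudocount of 0.2 CPM and 8 at 2-fold, and 0 to 527 with 1 library left out, of which Control 1, 2 or 3 left out gave 1 each, Control 4 3 and Maltreated 3 527. With a high library left out the other stands alone, so fewer values have to lie apart. Under the other scalings, strands and exon counts both counts stayed within 1.5 times.

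For Maltreated against Control, edgeR called 0 genes under every alternative run, while the DESeq2 Wald test called 3, all lower in Maltreated, of 10424 genes. With the replicate number as a replicate block, edgeR called 0 genes, with 275 at an unadjusted p under 0.05 against 191 without it; deviations of same-numbered libraries correlated at 0.0749, 0.00993 and -0.0194, so the numbers were not taken to pair the animals. The log2 fold change of a marker changed sign in 10 of 75 alternatives. PTPRC became -0.42 without both high libraries and -0.81 without Maltreated 3. CD68 became -1.18 and -2.17 under these and -0.35 with the covariate, and LYZ became -2.36 without Maltreated 3 and -0.18 with the covariate. The covariate is made of these markers and the high libraries were chosen by them, so these changes are set by the choice. CD74 became 1.87 with the replicate block, 0.25 with reduced exon counts and 4.33 without Control 4. With 1 library left out, PTPRC ran from -0.81 to 3.93, CD68 from -2.17 to 5.13, CD74 from -6.13 to 4.33 and LYZ from -2.36 to 3.58. With reduced exon counts the high minus low log2 difference of CAMSAP3 became -0.47 and that of TFRC -0.02. For the 163 genes of the gene tables, 1825 of the other values moved by less than the spread of the low libraries and 455 by more. For the medians of the lists and of all genes, it was 194 and 48. The cause of each change was not tested unless stated. Depth limits genes near 0: 3 counts are 0.564 CPM in Control 4 and 0.281 CPM in Maltreated 3.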
